A study of Gallus gallus with 3 samples.

Results

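The endothelial genes described here are 10 genes whose products line blood and lymph vessels: PECAM1, CDH5, KDR, FLT4, TEK, TIE1, VWF, EGFL7, ESAM and PLVAP. They were chosen by name, as known endothelial genes, though with earlier results of these data known. All 10 were found among the 15675 genes with expression values. The tissue was jejunal mucosa, and the birds were hens of Leuang Hang Kao, described by the study as adapted to heat, which were aged 28 weeks and caged singly at a thermoneutral 23 °C. The study drew RNA from 12 of 25 such hens into 3 pools of 4 hens each, and a second arm was held at 36 °C for 6 h, which was not analysed here. All values below come from control pools 1, 2 and 3, which form 1 group, so no contrast of conditions could be made. Values are FPKM, read fragments scaled to transcript length and library size by the authors, and errors are SD over the 3 pools of RNA, not over single hens. The labels name mucosa and not villus, so vessels of the villus core and of deeper layers cannot be told apart. In RNA from whole tissue, fewer endothelial cells and less RNA per endothelial cell cannot be told apart either.

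Endothelial cells form the inner wall of every vessel. The capillaries under the intestinal epithelium are fenestrated, with pores closed by diaphragms built of PLVAP, and they take up absorbed nutrients. In birds, absorbed fat leaves the gut mainly through the portal blood, as particles called portomicrons, whereas in mammals it leaves through lymphatic lacteals. Vessel growth and upkeep depend on receptor tyrosine kinases of the endothelium: KDR and FLT4 bind ligands of the vascular endothelial growth factor (VEGF) family, and TEK binds the angiopoietins. TIE1 is a relative of TEK that modulates its signal.

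Markers of other cell types also differed between the pools. Summed FPKM lay between 936084 and 948742 per pool, and the depth of the libraries is unknown. All 10 enterocyte markers had a mean above 1 FPKM, and none was highest in pool 3, against 52.0% of all genes with such a mean. Their summed levels were 14971.8, 14897.5 and 9427.3 FPKM in pools 1, 2 and 3. FABP2 alone was at 8728.89, 9597.9 and 4826.71 FPKM. All 12 smooth muscle markers and all 11 fibroblast and matrix markers were lowest in pool 1 and highest in pool 3. This order held for 39.0% of the 11570 genes whose mean reached 1 FPKM. The summed levels of these markers were 368, 736 and 1246 FPKM for muscle and 260, 487 and 784 FPKM for fibroblasts in pools 1, 2 and 3. Across the 11570 genes whose mean reached 1 FPKM, the median difference of pool 3 minus pool 1 was 0.13 on the log2(FPKM + 1) scale.

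PLVAP and PECAM1 made up most of the summed FPKM of the 10 genes. PLVAP, the diaphragm protein of fenestrated capillaries, was at 47.71, 78.56 and 137.34 FPKM in pools 1, 2 and 3, a mean of 87.9 ± 45.5 (SD, n = 3). PECAM1, an adhesion molecule of endothelial junctions that leukocytes and platelets also carry in mammals, was at 32.60, 28.18 and 44.81 FPKM, a mean of 35.2 ± 8.61. The lowest PLVAP value was above the highest PECAM1 value. Together these genes held 81.4%, 76.3% and 76.5% of the summed FPKM of the 10, which was 98.6, 140 and 238 FPKM in pools 1, 2 and 3. By mean FPKM, PLVAP ranked 1260 and PECAM1 2855 among all 15675 genes, and the other members lay between rank 6951 and rank 11723.

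Genes of endothelial junctions and of the vessel wall stood next. CDH5, the cadherin that joins endothelial cells, was at 4.05, 7.98 and 14.41 FPKM in pools 1, 2 and 3, a mean of 8.81 ± 5.23. VWF, the clotting glycoprotein that endothelium stores and secretes, was at 4.07, 7.32 and 11.01 FPKM, a mean of 7.47 ± 3.47. EGFL7, a secreted protein that endothelial cells deposit in the matrix around growing vessels, was at 2.63, 4.93 and 7.98 FPKM, a mean of 5.18 ± 2.68. All 3 genes were lowest in pool 1 and highest in pool 3. ESAM, an adhesion molecule of endothelial tight junctions, was at 1.78, 3.35 and 6.48 FPKM, a mean of 3.87 ± 2.39, with the same order of pools.

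The 4 receptor tyrosine kinases had the lowest means of the 10. TIE1 was at 2.30, 3.44 and 5.38 FPKM in pools 1, 2 and 3, a mean of 3.71 ± 1.56. KDR, the main VEGF receptor of blood vessels, was at 1.68, 3.44 and 5.71 FPKM, a mean of 3.61 ± 2.02. TEK, the angiopoietin receptor, was at 1.36, 1.82 and 3.58 FPKM, a mean of 2.25 ± 1.17. All were lowest in pool 1 and highest in pool 3. FLT4, the VEGF receptor that is typical of lymphatic endothelium in adult mammals, was at 0.45, 0.79 and 1.42 FPKM, a mean of 0.887 ± 0.492. It was the only member under a mean of 1 FPKM, the filter used for gene lists below, so 9 of the 10 passed it. The pools of FLT4 and TEK overlapped, since FLT4 in pool 3 exceeded TEK in pool 1, but within each pool TEK was higher.

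**Figure D1:**
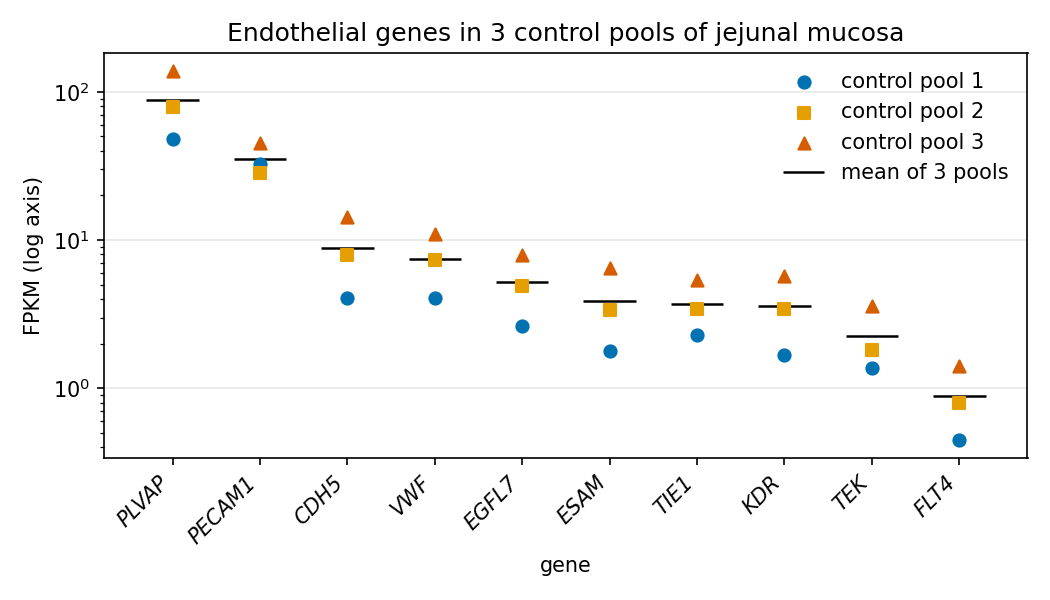
FPKM of the 10 endothelial genes (log axis) in each control pool, ordered by their mean over the pools (black bars). Pool 3 holds the highest value of every gene, from 1.42 FPKM for FLT4 to 137.34 for PLVAP, and pool 1 the lowest of every gene except PECAM1.

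Of the 9 pairs of neighbours in the order of mean FPKM, 6 differed beyond their spread. The order came from these same values, so this rule describes them and is no test. A pair was said to differ beyond its spread when the within-pool difference on the log2(FPKM + 1) scale had 1 sign in all pools and a mean above its SD. PLVAP exceeded PECAM1 by 1.19 ± 0.57 on this scale, and PECAM1 exceeded CDH5 by 2.0 ± 0.64. CDH5 and VWF did not differ beyond their spread, with a difference of 0.15 ± 0.19. VWF exceeded EGFL7 by 0.46 ± 0.04, and EGFL7 exceeded ESAM by 0.37 ± 0.09. ESAM, TIE1 and KDR could not be ordered, with ESAM minus TIE1 at -0.02 ± 0.24 and TIE1 minus KDR at 0.08 ± 0.20. KDR exceeded TEK by 0.46 ± 0.25 and TEK exceeded FLT4 by 0.76 ± 0.14. The FPKM ranges over pools overlapped for all neighbours below PECAM1, so the order there rests on values compared within a pool.

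The spread between pools was large and mostly shared. In 9 of the 10 genes, pool 3 held at least 2 times the FPKM of pool 1, which was the case for 9.00% of the 11570 genes. PECAM1 was the exception, with a ratio of 1.37. The other ratios were 3.64 for ESAM, 3.56 for CDH5, 3.40 for KDR, 3.16 for FLT4, 3.03 for EGFL7, 2.88 for PLVAP, 2.71 for VWF, 2.63 for TEK and 2.34 for TIE1. On the log2(FPKM + 1) scale, where low genes differ less, 6 of the 10 differed by more than 1, against 4.75% of all genes, and the members' median difference was 1.28 against 0.13. The excess of the members' median over that of all genes was 1.14, and 1.15 after rescaling by the median ratio. It was 0.55 without pool 1 and 0.61 without pool 3. All 10 were highest in pool 3, as were 52.0% of all genes, and 9 were lowest in pool 1, as were 51.3%. The same 9 were both, against 39.0% of all genes. The gap between pools 1 and 3 sets the counts at a ratio of 2 or more and at a log2 difference above 1. Pool 3 against pool 2 gave no member a ratio of 2 or more, against 2.54% of all genes. Pool 2 against pool 1 gave only KDR, at 2.05, against 2.88% of all genes. These 2 shares are over genes whose mean over the 2 pools compared reached 1 FPKM. The pools are of 1 group, so these values describe libraries and carry no test.

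Relative to CDH5 in the same pool, most of the genes roughly kept their level. KDR stood at 0.415, 0.431 and 0.396 of CDH5 in pools 1, 2 and 3, and ESAM at 0.440, 0.420 and 0.450. FLT4 stood at 0.111, 0.0990 and 0.0985 of CDH5. The highest ratio over the lowest was 1.07 for ESAM, 1.09 for KDR, 1.13 for FLT4, 1.17 for EGFL7, 1.24 for PLVAP and 1.32 for VWF, although CDH5 itself spanned 3.56-fold. It was wider for TEK, at 1.47, and TIE1, at 1.52. All of the other members except KDR and ESAM were highest relative to CDH5 in pool 1. PLVAP stood at 11.8, 9.84 and 9.53 times CDH5 in pools 1, 2 and 3, and VWF at 1.005, 0.917 and 0.764. PECAM1 was at 8.05 times CDH5 in pool 1, 3.53 in pool 2 and 3.11 in pool 3, a span of 2.59. The most abundant smooth muscle markers changed between pools much as CDH5 did. Pool 3 over pool 1 was 3.72 for DES, 3.68 for TAGLN, 3.19 for ACTG2 and 2.82 for MYL9, against 3.56 for CDH5. Pool 2 over pool 1 was 1.99, 2.22, 1.81 and 1.86 for these markers, against 1.97 for CDH5. A level kept relative to CDH5 was therefore not particular to endothelial genes.

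**Figure D2:**
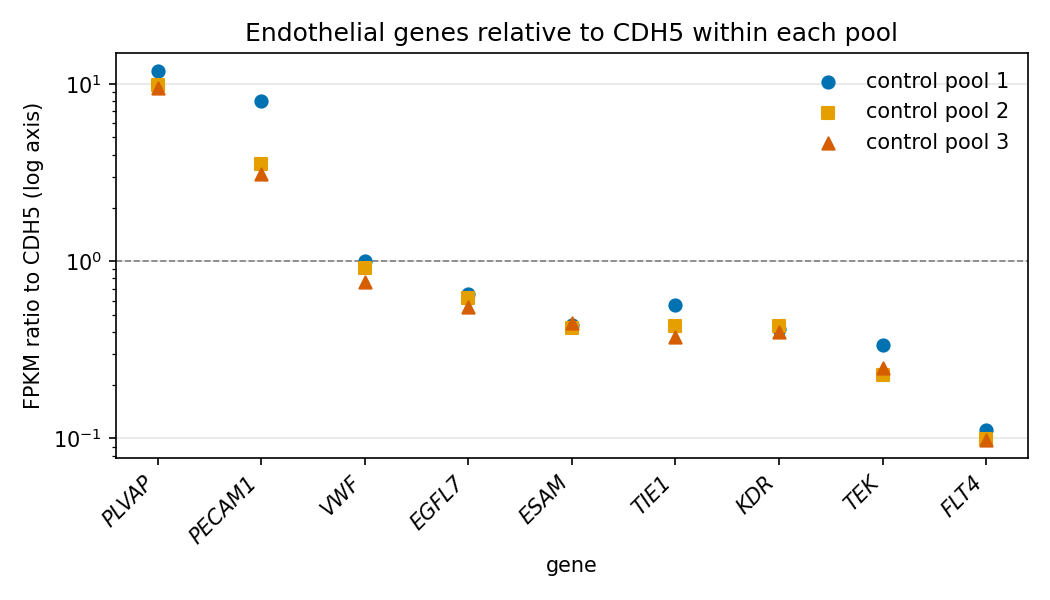
FPKM of 9 endothelial genes divided by the FPKM of CDH5 in the same control pool (log axis), with the dashed line at equality. Points of ESAM, KDR and FLT4 nearly coincide, and PECAM1 spreads from 3.11 in pool 3 to 8.05 in pool 1.

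PECAM1 was the one member that did not have its lowest value in pool 1. Markers of leukocytes, which also carry PECAM1 in mammals, were abundant. All 9 measured markers had means above 10 FPKM, and their summed levels were 862, 966 and 1133 FPKM in pools 1, 2 and 3. CD3D, a T cell receptor component, was at 434.44, 463.06 and 549.40 FPKM, LAPTM5, a lysosomal protein of blood cells, at 84.39, 97.38 and 123.85, LCP1, a leukocyte actin bundler, at 85.34, 87.99 and 105.18, and CD3E at 93.12, 126.88 and 126.73. Pool 3 minus pool 1 was 0.45 for PECAM1 and had a median of 0.44 over the leukocyte markers, with a range of 0.19 to 0.71. The same median was 1.28 over the 10 genes and 0.13 over all genes. Pool 2 minus pool 1 was -0.20 for PECAM1 and had a median of 0.26 over these markers. All 9 of them were lowest in pool 1, against 51.3% of all genes. PECAM1 was lowest in pool 2, where none of these markers was lowest. The part of leukocytes in the PECAM1 values was not tested.

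Thrombocytes, the nucleated clotting cells of birds, share VWF, PECAM1 and ESAM with endothelium in related cell types of mammals. Of 9 measured thrombocyte markers, 6 had a mean of at least 1 FPKM. GP5, a platelet surface glycoprotein, was at 19.64, 27.83 and 22.41 FPKM, and THBS1, a matrix protein that platelets release and that stromal cells also make, at 4.70, 8.80 and 14.88. TUBB1, the platelet tubulin, was at 6.20, 4.63 and 5.87 FPKM. Other measured markers were lower, and some were near 0. ITGB3 was at 0.51, 1.17 and 1.98 FPKM and GP1BB at 1.04, 2.33 and 0.50. GP1BA was at 0.41, 0.36 and 0.29 FPKM and ITGA2B, the fibrinogen receptor subunit, at 0.10, 0.06 and 0.29. F13A1 was listed at 0 in pool 1 and at 0.05 and 0.07 in the others. The 6 markers whose mean reached 1 FPKM summed to 33.0, 46.2 and 47.5 FPKM in pools 1, 2 and 3. Of these 6, 3 were lowest in pool 1 and highest in pool 3, against 39.0% of all genes. Of the red cell genes, HBA1 was at 28.64, 74.91 and 80.01 FPKM and HBBA at 23.87, 65.38 and 69.48, low in pool 1 and close in pools 2 and 3, and SLC4A1, the anion exchanger, was listed at 0 in pool 1 and was at 0.03 and 0.05 FPKM in the others. The part of blood in the values of the 10 genes was not tested.

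Ligands for these receptors were detected, and VEGFA ran against the rest. VEGFA, the principal ligand of KDR, was at 2.15, 1.33 and 1.13 FPKM in pools 1, 2 and 3, with its highest value in the pool where KDR was lowest. VEGFA minus KDR was 0.23, -0.93 and -1.66 on the log2(FPKM + 1) scale. The order of the genes therefore differed between pools, and their mean difference of -0.78 ± 0.95 lay within its spread. The pool order of VEGFA was the same under both rescalings tried. Pool 3 minus pool 1 was -0.56 for VEGFA and had a median of -0.56 over the 10 enterocyte markers, against 0.13 over all genes. These markers ranged from -1.63 to -0.19. Pool 2 minus pool 1 was -0.44 for VEGFA and had a median of -0.14 over these markers, against 0.07 over all genes. Whether epithelium contributes to the VEGFA values was not tested.

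Ligands of FLT4 were higher than the receptor and shared its order of pools. VEGFD was at 2.91, 5.42 and 9.39 FPKM, a mean of 5.91 ± 3.27, and VEGFC at 1.61, 2.65 and 4.51, a mean of 2.92 ± 1.47. VEGFC minus FLT4 was 1.02 ± 0.17 on the log2(FPKM + 1) scale, higher in all 3 pools. PGF, a ligand of FLT1, was at 1.18, 1.34 and 1.87 FPKM. FLT1, the VEGF receptor that acts largely as a trap for VEGFA, was at 0.22, 0.58 and 0.78 FPKM, and KDR exceeded it by 1.51 ± 0.39 on the log2 scale. KDR exceeded FLT4 by 1.22 ± 0.30. Neuropilins, the co-receptors of VEGF receptors, were above the receptors themselves, with NRP1 at 3.39, 6.59 and 10.96 FPKM and NRP2 at 2.83, 4.83 and 7.10.

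Among angiopoietins, ANGPT2 stood well above ANGPT1. ANGPT2, which endothelium itself makes and which blocks or partly activates TEK depending on context in mammals, was at 7.26, 12.85 and 14.01 FPKM, a mean of 11.4 ± 3.61. ANGPT1, the activating ligand made mainly by cells around vessels, was at 0.74, 1.01 and 0.96 FPKM, and ANGPT4 at 1.16, 1.65 and 2.92. Every ANGPT2 value was above every ANGPT1 and TEK value. ANGPT2 minus TEK was 1.94 ± 0.31 and ANGPT1 minus TEK -0.72 ± 0.44 on the log2(FPKM + 1) scale. TIE1 exceeded TEK in all 3 pools, by 0.54 ± 0.10, and was 1.69, 1.89 and 1.5 times TEK in FPKM. PTPRB, the endothelial phosphatase that restrains TEK, was at 2.83, 4.47 and 7.02 FPKM, above TEK in every pool.

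**Figure D3:**
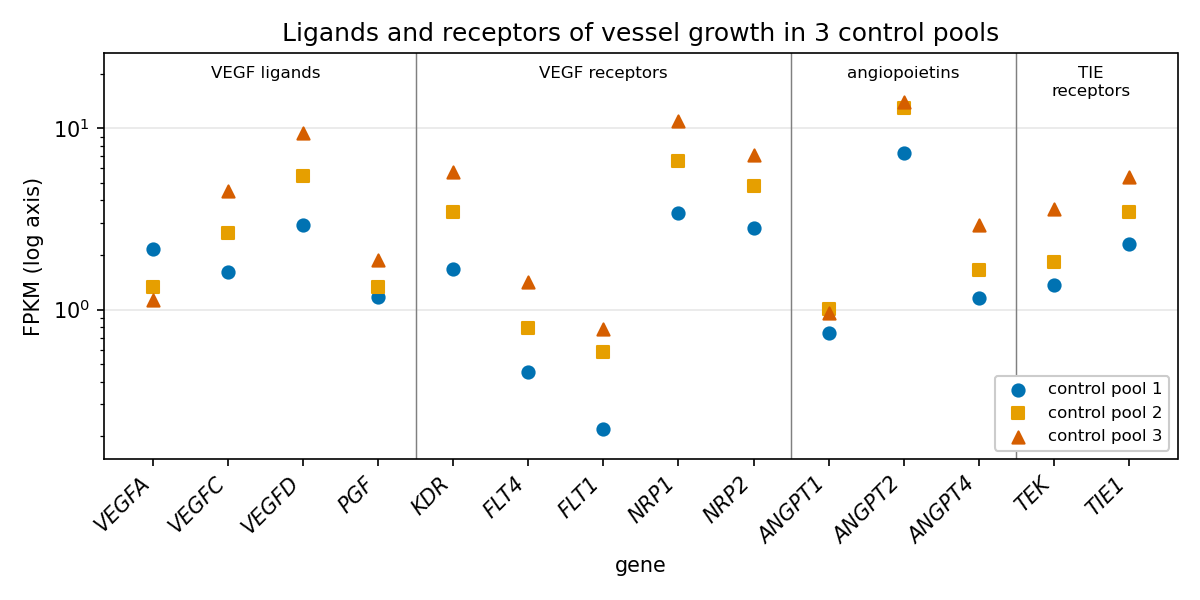
FPKM (log axis) of VEGF ligands, VEGF receptors and co-receptors, angiopoietins and TIE receptors in each control pool. VEGFA is the one gene shown with its highest value in pool 1, at 2.15 FPKM, and ANGPT2, at 7.26 to 14.01 FPKM, lies above both TIE receptors.

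Other receptors of the vessel wall mostly shared the order of pools, with the Notch ligand DLL4 as an exception. ACVRL1 and ENG, endothelial receptors for bone morphogenetic proteins, were at 8.97, 13.19 and 17.53 FPKM and at 5.93, 9.97 and 13.21 FPKM in pools 1, 2 and 3. S1PR1, the sphingosine phosphate receptor that stabilises vessels and guides lymphocytes, was at 5.58, 6.67 and 10.70 FPKM, and APLNR, the apelin receptor, at 0.89, 1.47 and 1.97. Of the 9 such receptors and ligands whose mean reached 1 FPKM, 8 were lowest in pool 1 and highest in pool 3, against 39.0% of all genes. DLL4, a Notch ligand of growing vessels that other cells of the gut also use, was the exception at 9.77, 10.77 and 9.57 FPKM, a mean of 10.04 ± 0.643. NOTCH1, its receptor, was at 2.88, 3.29 and 4.28 FPKM. The guidance receptors ROBO4, at 0.40, 0.36 and 0.65 FPKM, and UNC5B, at 0.22, 0.52 and 0.88, were under a mean of 1 FPKM.

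Transcription factors of the endothelium shared the order of pools seen in 9 of the 10 genes. All 12 measured factors had a mean above 1 FPKM, and all 12 were lowest in pool 1 and highest in pool 3, against 39.0% of all genes. Pool 3 held at least 2 times the FPKM of pool 1 in 9 of the 12, against 9.00% of all genes. Their median difference of pool 3 minus pool 1 was 1.06 on the log2(FPKM + 1) scale. LMO2, a cofactor of blood and vessel development, was at 25.52, 40.01 and 61.73 FPKM, and the ETS family factors ETS1 and FLI1, which lymphocytes and other blood cells also express, at 12.59, 16.17 and 24.09 FPKM and at 9.39, 12.68 and 21.39 FPKM. KLF2, which responds to blood flow, was at 5.04, 6.13 and 9.20 FPKM. ERG, the ETS factor most restricted to endothelium in mammals, was at 0.62, 1.38 and 2.42 FPKM. SOX18 and SOX17, related factors of vessel formation, were at 1.26, 2.65 and 3.68 FPKM and at 0.47, 1.36 and 1.94 FPKM.

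Other surface proteins of endothelium mostly shared the order of pools but varied in how far the pools differed. Of the 10 whose mean reached 1 FPKM, 8 were lowest in pool 1 and highest in pool 3, against 39.0% of all genes. Pool 3 held at least 2 times the FPKM of pool 1 in 7 of them, against 9.00% of all genes. Their median log2 difference of pool 3 minus pool 1 was 1.24, with a range of 0.11 to 1.56, and that of the members was 1.28. EHD2, which coats the necks of caveolae, was at 6.90, 12.90 and 19.23 FPKM in pools 1, 2 and 3. JAM2, a junction protein, was at 3.25, 5.38 and 11.01 FPKM, and CD34, a sialomucin of capillaries, at 3.53, 6.53 and 8.44. VCAM1, which captures leukocytes, was at 8.73, 7.89 and 9.48 FPKM and the selectin SELP at 5.49, 5.34 and 6.91, and SELE was at 2.14, 2.20 and 3.31. After rescaling by the median ratio, VCAM1 was highest in pool 1 and no longer in pool 3. The same rescaling put SELE at 2.26, 2.20 and 3.15, lowest in pool 2, so it no longer counted among the 8. CLDN5, the claudin of tight endothelial barriers, was at 0.41, 0.92 and 1.19 FPKM, below CDH5 in every pool, and CD93 was at 0.25, 0.22 and 0.45.

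Lymphatic markers were present beside low FLT4. LYVE1, the hyaluronan receptor of lymphatic endothelium and of some macrophages, was at 19.05, 35.59 and 71.15 FPKM in pools 1, 2 and 3, a level that only PLVAP and, in pool 1, PECAM1 exceeded among the 10 genes. PROX1, the factor that sets lymphatic identity and that enteroendocrine cells also use in mammals, was at 1.04, 2.35 and 2.44 FPKM. NR2F2, a factor of veins and lymphatics that stromal cells share, was at 3.82, 7.60 and 8.76 FPKM, and PDPN, a surface glycoprotein that stromal cells also carry, at 3.58, 4.94 and 7.01. All 4 markers whose mean reached 1 FPKM were lowest in pool 1 and highest in pool 3, against 39.0% of all genes.

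The within-pool distance of the 10 genes from other lists varied least for endothelial transcription factors and surface proteins, and for pericyte and fibroblast markers. The median of the 10 on the log2(FPKM + 1) scale was 1.79, 2.36 and 3.03 in pools 1, 2 and 3. Its difference from the fibroblast median was -2.67, -2.83 and -2.84, with an SD of 0.09. Against the pericyte markers it was 0.03, -0.08 and 0.09, with an SD of 0.09. The pericyte median rests on 4 genes, whose pool 3 minus pool 1 differences ran from 0.67 to 1.94. Against endothelial surface proteins the distance was -0.17, -0.17 and -0.08, with an SD of 0.05. Against endothelial transcription factors it fell from 0.26 to 0.19 and 0.10, with an SD of 0.08. Other vessel lists varied more. The distance was -0.44, -0.48 and -0.11 from lymphatic markers, with an SD of 0.20. From the other vessel receptors it was -0.34, -0.56 and -0.37, with an SD of 0.12. From the VEGF and angiopoietin ligands it was 0.27, 0.72 and 0.82, with an SD of 0.29. RGS5, a regulator of signalling in pericytes, was at 21.44, 49.59 and 84.97 FPKM, PDGFRB, the growth factor receptor of pericytes and fibroblasts, at 2.49, 4.07 and 6.68, and KCNJ8 and ABCC9, subunits of a potassium channel, at 2.29, 4.79 and 6.69 and at 0.81, 1.54 and 1.88. The difference from smooth muscle was -2.15, -2.66 and -2.77, so the 10 genes stood highest relative to muscle in pool 1. In that list, ACTG2 and TAGLN, contractile proteins, were at 175.72 and 162.74 FPKM in pool 2, MYL9 at 80.94, 150.89 and 228.51 FPKM in the 3 pools, and DES at 73.70 in pool 2. Of the fibroblast markers, COL3A1, SPARC, COL1A1 and LUM, matrix proteins, were at 114.31, 92.91, 52.78 and 50.93 FPKM in pool 2.

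Against epithelium the difference changed more. The median of the 10 genes minus that of the enterocyte markers was -7.48, -6.69 and -5.66 on the log2(FPKM + 1) scale in pools 1, 2 and 3, and minus that of the leukocyte markers -4.58, -4.05 and -3.70. The most abundant enterocyte markers, FABP2, EPCAM, KRT20 and ANPEP, had means of 7718 ± 2541, 2061 ± 147, 952 ± 264 and 682 ± 103 FPKM. Median differences of pool 3 minus pool 1 were 1.28 for the 10 genes, 1.18 for pericyte, 1.36 for fibroblast and 1.72 for smooth muscle markers, 0.44 for leukocyte and -0.56 for enterocyte markers. The part of tissue make-up in the spread of the 10 genes was not tested.

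**Figure D4:**
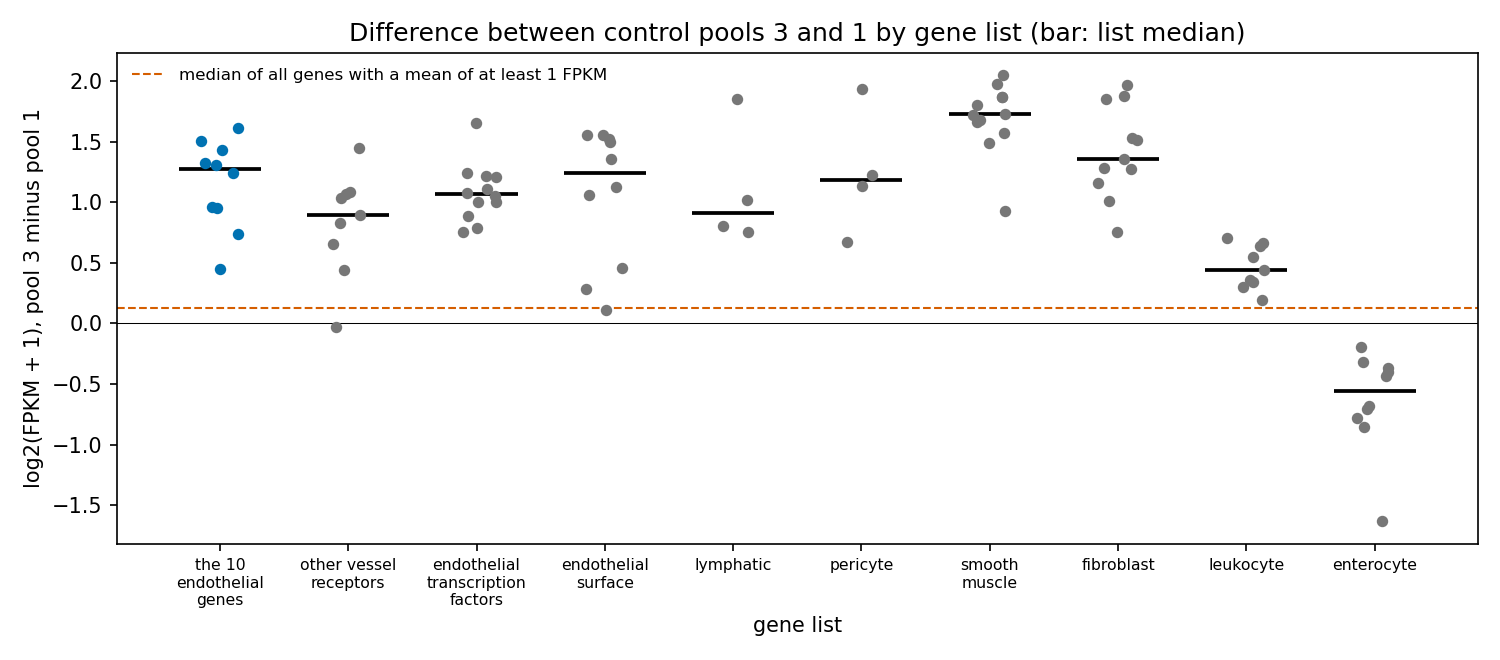
Difference of pool 3 minus pool 1 in log2(FPKM + 1) for each gene of 10 lists, with list medians as bars and the median of 11570 genes, 0.13, as the dashed line. The 10 endothelial genes run from 0.45 to 1.61. Their median of 1.28 lies between the fibroblast median of 1.36 and the pericyte median of 1.18, and enterocyte markers lie below 0.

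Genes outside all lists with the most similar pattern were found by the root mean square difference, over the 3 pools, between a gene's log2(FPKM + 1) profile centred on its own mean and the median centred profile of the 10 genes. The median profile was -0.66, -0.03 and 0.61 in pools 1, 2 and 3, and the members themselves lay between 0.0412 for EGFL7 and 0.393 for PECAM1 from it. The 10 nearest of 8527 genes whose mean reached 5 FPKM lay between 0.0306 and 0.0384. They were TMEM119, HSPG2, RBP5, MEIS1, ALDH1A3, SLCO2A1, LOC107049164, EMP2, GPC1 and MMRN2. HSPG2, the basement membrane proteoglycan perlecan, was at 3.31, 5.76 and 9.23 FPKM in pools 1, 2 and 3. MMRN2, a matrix glycoprotein of endothelium, was at 3.11, 5.66 and 9.29 FPKM, SLCO2A1, a prostaglandin carrier, at 9.47, 15.25 and 25.25, and GPC1, a cell surface proteoglycan, at 5.40, 9.33 and 14.52. RBP5, a cellular retinol-binding protein, was the most abundant of them at 37.36, 60.46 and 94.32 FPKM. In all, 113 of the 8527 genes were as near to the profile as the median member, and with 3 pools such nearness has little power to single out a gene.

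Overlap with other genes could touch 3 of the 10. In RefSeq's gene table, made on assembly GRCg7b, a later build than the GRCg6a that the submitters' processing notes name, all 10 symbols were found and 7 of the genes overlapped no other gene. The span of PECAM1 overlapped that of TEX2, which was at 12.46, 12.31 and 11.58 FPKM in pools 1, 2 and 3. EGFL7 held the microRNA gene MIR126, and ESAM overlapped NRGN and LOC121107514, for which no values were used here. Strand-aware counting is not stated in the sources used here, and the share of such reads in the values was not tested.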

How the data were processed

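RNA of jejunal mucosa was pooled from 4 hens per library, and 3 control pools were analysed. The submitters' processing notes name HISAT2 2.0.1, HTSeq 0.6.1, DESeq2 and cutadapt 1.9.1, with build GRCg6a but no role or order. The annotation is not given in the sources used here. Each pool has FPKM that the authors deposited to 2 decimals, per the file headers. They also deposited read counts, best described as estimated counts since only 86.8% to 86.9% were whole within 1e-06. They were unrelated to FPKM row by row, with a Pearson's r of 0.005 to 0.009 on log2 values across 15675 genes, which are not independent, so no count model was used. Ratios of low FPKM between pools piled up at no single value (the fullest bin held 118 of 1078 genes), so depth is unknown. Another 6 value columns belong to no labelled sample and stayed out of every step.

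FPKM were used as deposited and put on the log2(FPKM + 1) scale, where low genes differ less. The 3 pools are 1 group, so results are values with their spread and no test was run. A sign-flip permutation test over 3 pools could give no p below 0.25. The 10 genes and 12 further lists were chosen with earlier results of these data known. Of 139 listed symbols, 117 had values. Named are the 10 genes, all measured ligands and receptors, up to 4 genes with the highest mean per list and the 10 nearest in profile, except 1 that is not reported here. SOX17, SOX18, ERG, CLDN5, CD93, SELE, SELP, ITGA2B, ITGB3, GP1BA, GP1BB, F13A1 and TEX2 were chosen after their values were seen. Tools were pandas 2.3.3 and numpy 2.4.6 in Python 3.11.15 with matplotlib 3.10.9. The profile search was run on simulated data, with the searched profile planted among otherwise flat genes. That run checks the code and does not show how the search performs on these pools.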

Additional observations from a re-analysis of the deposited data

How the results depend on the processing

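Of 151 alternative values over 25 results, 121 moved by no more than the spread between pools, or by no more than 1.5 times for counts. Of these 1 changed sign, the members minus pericyte markers, at 0.015 over all pools and -0.024 without pool 3. For the members' median difference the spread was 0.62, and it holds the same gap between pools 1 and 3 that is measured. The fall of that difference from 1.28 to 0.68 without pool 3 therefore counted among the 121. No paired analysis was possible because all pools belong to 1 group. Leaving out each pool in turn gave a members' median difference of 0.62 to 1.28, 0 to 9 members at a ratio of 2 or more, 0 to 6 members with a log2 difference above 1, and 2.54% to 9.07% of all genes at a ratio of 2 or more. The last share was 17.6% with no filter and 4.08% over genes of at least 5 FPKM. With a pseudocount of 0.1, VEGFC minus FLT4 was 1.62, ANGPT2 minus TEK 2.34, TIE1 minus TEK 0.72, KDR minus FLT1 2.53, KDR minus FLT4 1.87 and the members minus fibroblast markers -3.04. As a mean over genes, the members lay 0.14 above the other vessel receptors and 0.39 above the other endothelial surface proteins, where medians had put them at -0.42 and -0.14, and at 0.42 from endothelial transcription factors, -2.00 from smooth muscle, -1.97 from fibroblast, -2.80 from red cell and -3.03 from leukocyte markers. With all measured genes of a list, they lay at -0.090 from the other receptors, 0.062 from the surface proteins and 1.15 from thrombocyte markers. Without PECAM1, an alternative chosen after seeing the data, they lay at -0.56, 0.051, -0.28, -0.12 and -2.92 from receptors, transcription factors, surface proteins, pericyte and fibroblast markers. The cause of these shifts was not tested. Depth is unknown, so counting error could not be given for any gene.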
